A study of Mus musculus with 34 samples.

Results

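Feedback regulators of the ERK MAP kinase pathway, 10 genes in all, were followed across mouse CAD cells: the phosphatase genes Dusp4, Dusp5 and Dusp6, the Sprouty genes Spry1, Spry2 and Spry4, the Sprouty-related genes Spred1 and Spred2, and the ETS transcription factor genes Etv4 and Etv5. They were listed by name, with earlier results of these data already known. Each matched 1 of 37310 gene identifiers, and all 10 passed the low-count filter in each experiment, so none is missing from any count below. CAD is a mouse neuroblastoma line of catecholaminergic character that leaves the cell cycle and grows processes when serum is taken away.

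All cells were grown in 10% fetal bovine serum and differentiated without it. The first RNA-seq experiment set wild-type (WT) cells beside a line labelled mir-138 DKO, for double knockout, each sampled in serum and after 1 day without it (4 groups of 2 libraries). The second sampled WT cells in serum and after 4 days without it (2 groups of 3 libraries). The third used only cells labelled DKO: a group in serum with no named transfection, and cells given pUC19 plasmid DNA, a miR-138 mimic or a miR-137 mimic (3 nM, with serum removed 48 h later), each sampled in serum and after 2 days without it (7 groups of 2 libraries). In addition, 6 small RNA libraries covered WT cells in serum and after 4 days. The labels do not say whether the DKO line is 1 clone, nor whether replicates are separate cultures, so a p-value here reflects only how far these libraries lie apart, which may be technical. The genotype field of the 4-day libraries of the second experiment reads mir-138 DKO, whereas their titles, the design text and the protocol give WT, and they are treated as WT.

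Growth factor receptors signal through RAS, RAF and MEK to ERK, which moves to the nucleus and switches on genes for growth and differentiation. Among these genes are brakes on the pathway itself. DUSP4, DUSP5 and DUSP6 remove phosphates from ERK, DUSP6 in the cytoplasm and DUSP4 and DUSP5 in the nucleus, while Sprouty and Spred proteins act upstream, on RAS and RAF activation. ETV4 and ETV5 belong to the PEA3 group of ETS factors, and their transcripts are widely read as outputs of FGF and ERK signalling. In neuronal precursors the duration of ERK activity is known to bear on the choice between division and differentiation.

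The mimics used in the study and 4 further miRNAs reported to target members (miR-21a for Spry1 and Spry2, miR-27 for Spry2, miR-181a for Dusp5 and Dusp6) have the mature sequences below, from RefSeq on GRCm38.p6, with the seed (bases 2 to 8) in capitals. They are shown because the seed sets which transcripts a miRNA can pair with.
mmu-miR-138-5p: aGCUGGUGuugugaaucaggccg
mmu-miR-137-3p: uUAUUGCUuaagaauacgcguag
mmu-miR-21a-5p: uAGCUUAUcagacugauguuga
mmu-miR-27a-3p: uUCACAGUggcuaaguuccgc
mmu-miR-27b-3p: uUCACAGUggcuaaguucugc
mmu-miR-181a-5p: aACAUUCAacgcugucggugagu
The miR-27a and miR-27b sequences share a seed, and the other 4 seeds are all different. The miR-138 sequence is encoded by hairpins Mir138-1 (chr9:122682898-122682920, plus strand) and Mir138-2 (chr8:94324312-94324334, plus strand), and miR-137-3p by Mir137 (chr3:118433901-118433923, plus strand).

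RefSeq promoter windows (GRCm38.p6, 250 bases before to 50 after the annotated start) were at hand for 7 of the 10 genes, with 2 windows for Etv5. Those of Dusp5 and Dusp6 are shown because these phosphatase genes moved differently from each other in the mimic-treated cells. In Dusp5 (chr19:53528895-53529144, plus strand, the 250 bases before the start) capitals mark 2 adjacent CArG boxes, the element bound by serum response factor, which begin 82 and 72 bases before the start.
Dusp5: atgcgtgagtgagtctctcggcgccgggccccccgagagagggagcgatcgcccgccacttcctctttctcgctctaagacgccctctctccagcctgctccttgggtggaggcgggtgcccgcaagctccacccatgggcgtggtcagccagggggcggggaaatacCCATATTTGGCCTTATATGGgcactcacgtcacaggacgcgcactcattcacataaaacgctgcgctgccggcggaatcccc
In Dusp6 (chr10:99262981-99263230, plus strand, the 250 bases before the start) capitals mark 6 ETS core motifs, GGAA on either strand, which is the shared core that ETV4, ETV5 and other ETS factors bind.
Dusp6: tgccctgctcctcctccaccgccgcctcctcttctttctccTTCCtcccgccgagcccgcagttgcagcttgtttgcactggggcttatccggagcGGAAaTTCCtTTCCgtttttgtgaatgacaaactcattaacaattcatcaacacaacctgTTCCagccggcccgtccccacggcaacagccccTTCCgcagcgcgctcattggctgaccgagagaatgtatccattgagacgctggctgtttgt
Of 32851 promoter windows, 1.63% held a CArG box, searched by that name on both strands, and among the members only the Dusp5 window did. The core GGAA was in 96.0% of all windows, with a median of 3, so the 6 in Dusp6 are a description only. The longer ETS motif CCGGAAG (8.86% of all windows), the AP-1 motif TGANTCA (7.81%) and the CRE motif TGACGTCA (1.79%), each searched on both strands, were found in none of the 8 member windows.

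The first experiment had 22359075 to 41505181 reads assigned to genes per library, whereas the second had 19900317 to 28631969 and the last 12740836 to 25582125. Counts of members ranged from 32 (Dusp5) to 20703 (Dusp6) per library, so Dusp5 carried the most counting error. Reads of the hairpin gene Mir138-1 were present in all 28 RNA-seq libraries, at 0.552 to 1.39 CPM (reads per 1000000 assigned reads) in WT and 5.83 to 11 CPM in DKO-labelled libraries of the first experiment, and Mir138-2 had none, so these reads do not check the knockout label. The 15 catecholaminergic markers summed to 3560 to 3670 CPM in WT and 1340 to 1450 CPM in DKO-labelled cells in serum in the first experiment, in the latter of which Th, Slc18a2 and Nefm were at 0. The 4 proliferation markers summed to 1450 to 1560 CPM in serum and 6.54 to 32.4 CPM at 4 days in the second experiment. In bulk RNA, fewer cells expressing a gene and less RNA per cell cannot be told apart. Levels below are CPM scaled within an experiment and are not compared across experiments, of which the third also differs from the others in library kit and read length.

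Serum withdrawal raised most of these feedback genes in every setting in which it was sampled. Dusp6, Spry1, Spry2, Spry4 and Spred2 rose in 6 of 6 withdrawal comparisons, Etv5 in 5, Dusp4 in 4 and Spred1 in 3. Dusp5 rose in 2 and fell in 1, and Etv4 fell in 5 and rose in none. A gene was called at an adjusted p below 0.05 in edgeR's quasi-likelihood test (Benjamini-Hochberg over all genes tested). In WT cells at 1 day 8 of 10 members rose and none fell, where 20.4% of all genes were called higher, 20.3% lower and 40.7% in either direction. With any 1 of these 4 libraries left out 5 to 6 members were called, with 5 without serum replicate 2. In WT cells at 4 days 7 rose and 1 fell, against 36.2% of genes called higher, 34.7% lower and 70.9% in either direction. In DKO-labelled cells at 1 day 6 rose and 1 fell (19.9% of genes called higher, 20.4% lower, 40.3% in either direction). With pUC19 at 2 days 9 rose and 1 fell (28.4% higher, 31.3% lower, 59.7% in all), with the miR-138 mimic 6 rose and 2 fell (31.1%, 32.2% and 63.3%), and with the miR-137 mimic 8 rose and 1 fell (33.2%, 32.6% and 65.8%). The median log2 fold change of the 10 members was 0.37, 0.51, 0.42, 0.61, 0.14 and 0.58 in these 6 comparisons, in that order, whereas the median over all genes lay between -0.022 and 0.043. With so many genes called at 4 days, the count there is close to the background over both directions.

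**Figure D1:**
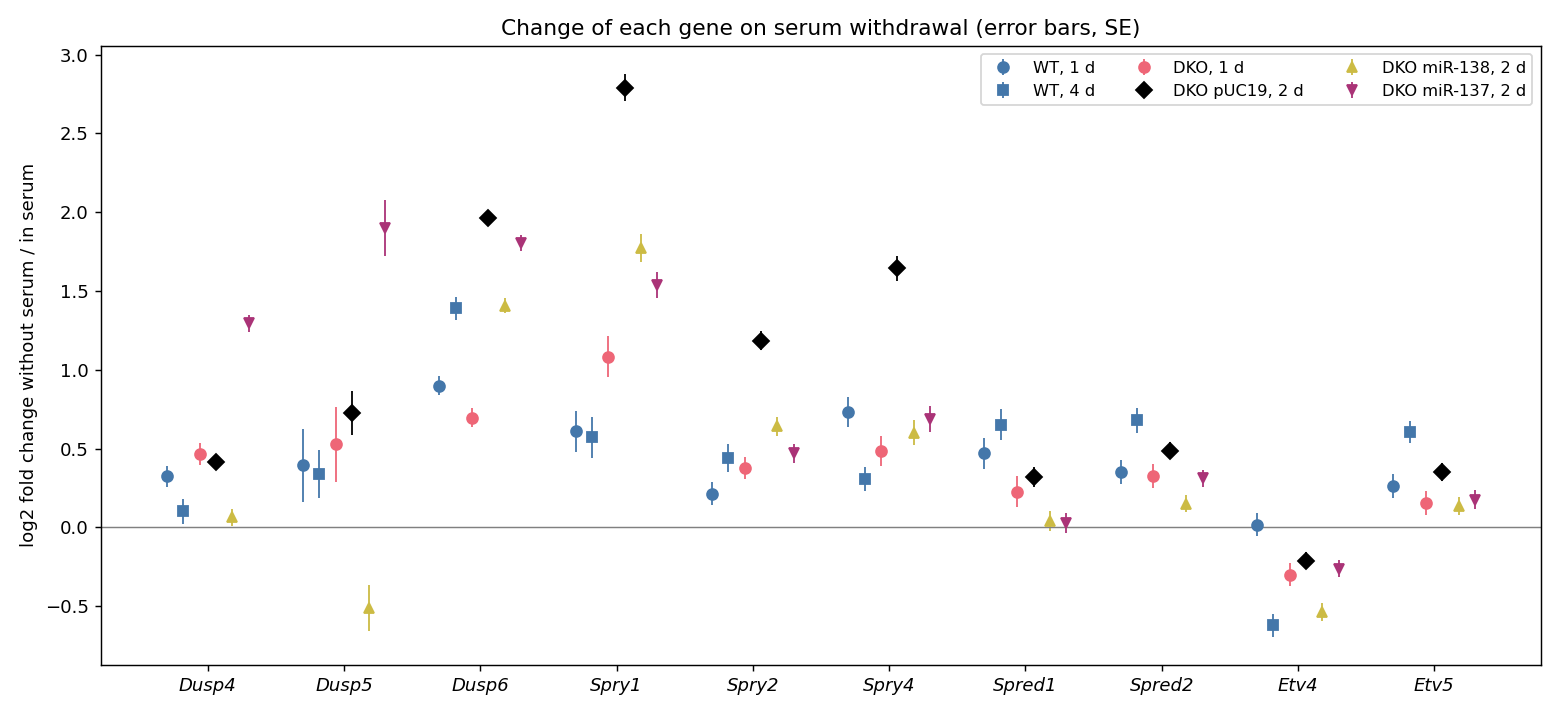
Log2 fold change of each gene on serum withdrawal (y axis, without serum over in serum, points with SE) in 6 settings, by gene (x axis). Dusp6, Spry1, Spry2, Spry4 and Spred2 lie above 0 in all 6 settings, Etv4 lies below 0 in 5, and Dusp5 lies below 0 only with the miR-138 mimic.

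Among the phosphatases, Dusp6, which encodes the cytoplasmic ERK phosphatase, had the steadiest rise. In WT cells of the first experiment it was at 289.7 and 268.4 CPM in serum and 526.4 and 514.0 CPM at 1 day. In the second experiment it was at 269.5, 248.2 and 273.5 CPM in serum and 706.6, 669.2 and 697.3 CPM at 4 days. Serum and serum-free libraries did not overlap in either experiment. The log2 fold change was 0.90 ± 0.060 (SE, n = 2 against 2, edgeR adjusted p = 8.46e-08) at 1 day and 1.39 ± 0.071 (SE, n = 3 against 3, adjusted p = 9.7e-10) at 4 days, a 2.62-fold rise. DKO-labelled cells went from 414.5 and 392.5 CPM to 662.9 and 644.9 CPM at 1 day, a log2 fold change of 0.70 ± 0.060 (edgeR adjusted p = 8.69e-07).

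Dusp4, a nuclear phosphatase gene, rose at 1 day but not measurably at 4 days. WT cells held 334.0 and 330.3 CPM in serum and 419.8 and 411.8 CPM at 1 day, a log2 fold change of 0.32 ± 0.068 (edgeR adjusted p = 0.00151). At 4 days the 326.8, 312.8 and 283.2 CPM overlapped the serum values of 299.5, 261.5 and 298.9 CPM (log2 fold change 0.10 ± 0.081, adjusted p = 0.276). Whether the change at 1 day differs from that at 4 days was not tested, since they come from separate experiments. DKO-labelled cells rose from 327.3 and 306.5 CPM to 466.4 and 409.8 CPM (0.47 ± 0.068, adjusted p = 8.9e-05). Dusp5, an immediate-early nuclear phosphatase gene, was the least abundant member in counts. Its log2 fold change was 0.40 ± 0.23 at 1 day in WT, 0.53 ± 0.24 in DKO-labelled cells and 0.34 ± 0.16 at 4 days (edgeR adjusted p = 0.198, 0.0946 and 0.0649), so no change passed the test. In DKO-labelled cells it was 0.904, and past the test, without serum replicate 1, and it also passed without the filter (adjusted p 0.00489 to 0.4 over settings). Its WT values of 6.977 and 9.64 CPM in serum and 10.54 and 11.37 CPM at 1 day show how far replicates lay apart.

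**Figure D2:**
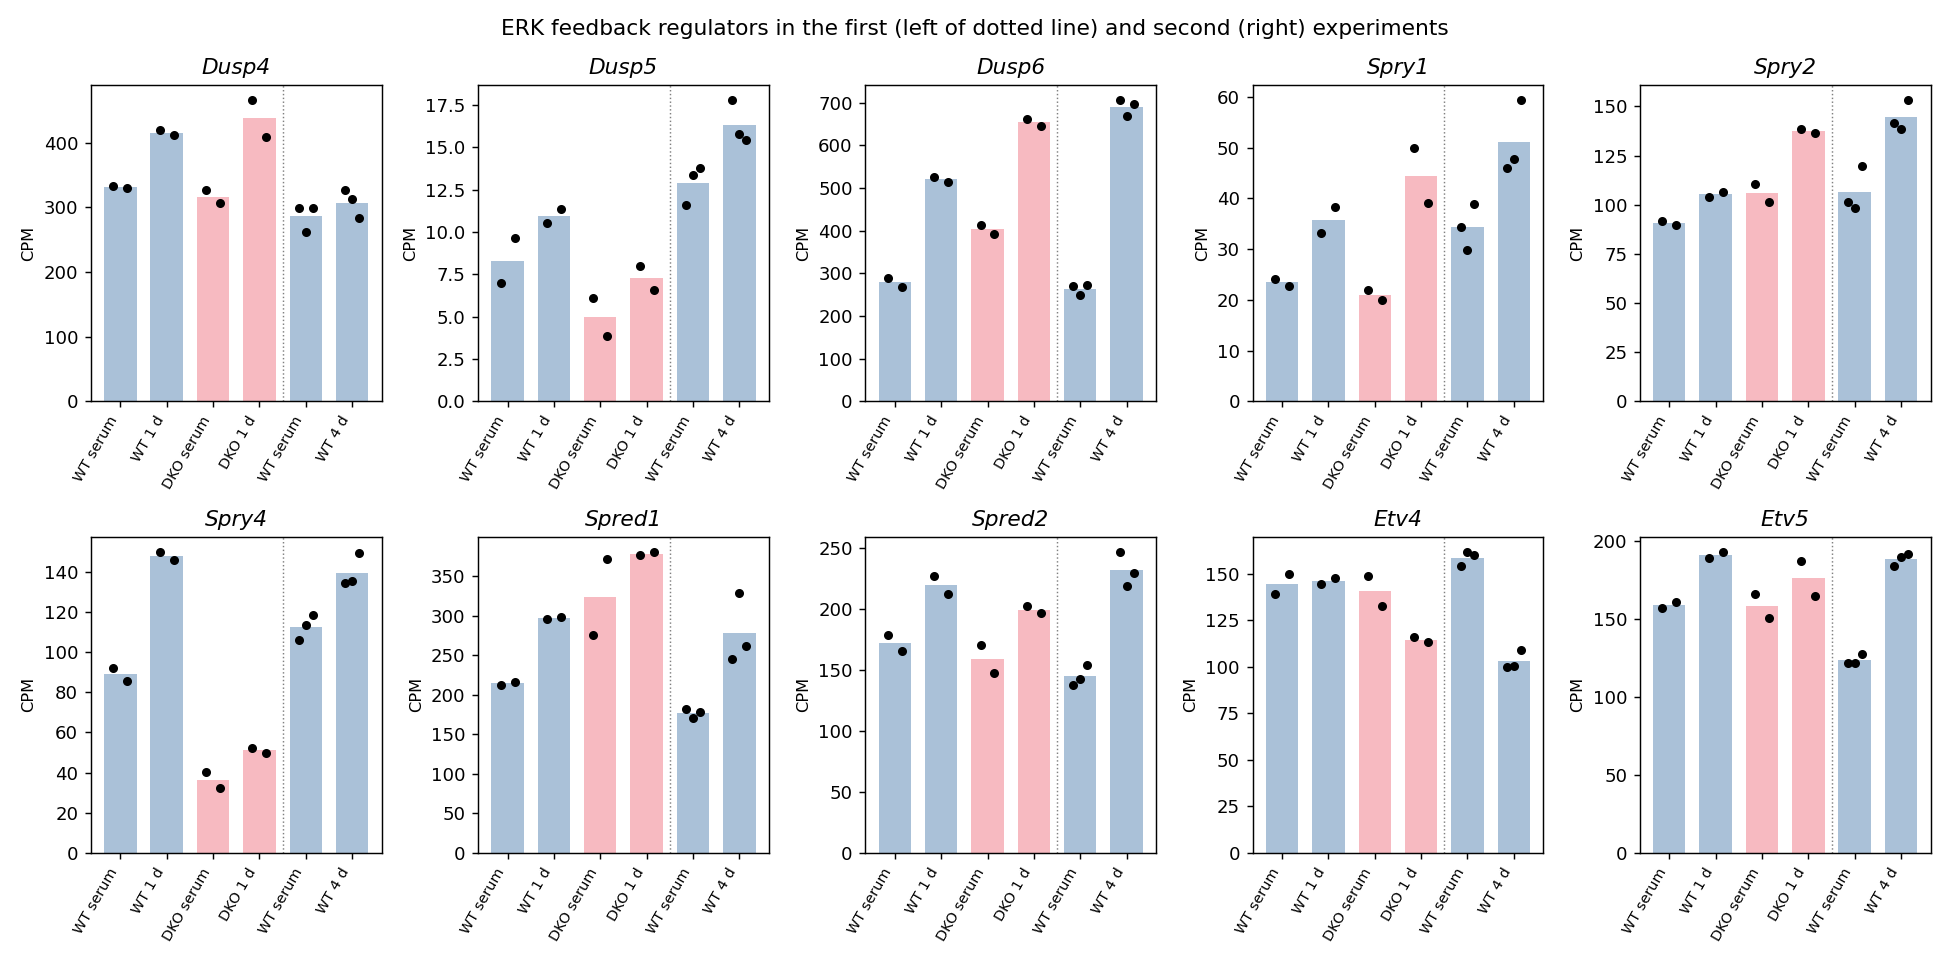
CPM (y axis) of the 10 genes in the groups of the first experiment (left of the dotted line) and the second (right of it), with points for libraries and bars for group means. WT groups are blue and DKO-labelled groups red; Dusp6 is higher without serum in every pair of groups, and Spry4 is lower in every DKO-labelled library than in every WT library of the first experiment.

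The 3 Sprouty genes encode adaptor proteins that dampen receptor signalling to RAS and RAF, and all 3 rose. Spry4 in WT cells went from 92.3 and 85.89 CPM to 150.0 and 145.9 CPM at 1 day, and from 106.0, 113.6 and 118.6 CPM to 134.2, 135.3 and 149.2 CPM at 4 days. The groups were separate in both cases, with log2 fold changes of 0.73 ± 0.093 and 0.31 ± 0.078 (edgeR adjusted p = 2.65e-05 and 0.00301). Spry1 went from 24.21 and 22.66 CPM to 33.13 and 38.22 CPM at 1 day (0.61 ± 0.13, adjusted p = 0.00182), and from 34.34, 29.89 and 38.89 CPM to 46.07, 47.79 and 59.42 CPM at 4 days (0.57 ± 0.13, adjusted p = 0.00131). In DKO-labelled cells Spry1 rose 2.12-fold, from 21.94 and 20.01 CPM to 49.94 and 39.1 CPM (1.08 ± 0.13, adjusted p = 1.62e-05). At 1 day Spry2 moved least of the 3, from 91.69 and 89.68 CPM to 104.1 and 106.4 CPM at 1 day in WT (0.21 ± 0.071, adjusted p = 0.0257). This call did not hold when any of the 4 libraries was left out: the log2 fold change was 0.225 and 0.188 without WT serum replicates 1 and 2, and 0.216 and 0.202 without 1-day replicates 1 and 2, with adjusted p of 0.00957 to 0.176 over all settings. At 4 days Spry2 rose from 101.4, 98.43 and 119.9 CPM to 141.6, 138.6 and 153.3 CPM (0.44 ± 0.088, adjusted p = 0.000519), with no overlap.

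Spred1 and Spred2, whose products bring neurofibromin to the membrane, where it switches RAS off, rose in WT cells at both times. Spred1 was at 212.6 and 216.0 CPM in serum and 295.6 and 298.1 CPM at 1 day (log2 fold change 0.47 ± 0.10, edgeR adjusted p = 0.00169). At 4 days it was at 245.6, 328.4 and 261.1 CPM, all above the serum values of 182.1, 170.4 and 178.7 CPM (0.65 ± 0.099, adjusted p = 4.39e-05). In DKO-labelled cells the serum replicates lay apart, at 275.8 and 371.4 CPM, against 376.2 and 380.7 CPM at 1 day, and the difference did not pass (0.23 ± 0.099, adjusted p = 0.083). It was 0.474 without DKO-labelled serum replicate 2 and passed there and without the filter (adjusted p 5.73e-07 to 0.801 over settings). Spred2 went from 178.6 and 165.1 CPM to 227.1 and 211.9 CPM at 1 day in WT (0.35 ± 0.077, adjusted p = 0.00208), which became 0.286 without WT serum replicate 2 (adjusted p = 0.0584, in a range of 3.3e-05 to 0.0584 over settings). It went from 137.5, 142.9 and 153.9 CPM to 246.8, 219.1 and 229.3 CPM at 4 days (0.68 ± 0.077, adjusted p = 2.62e-06). In DKO-labelled cells Spred2 rose by 0.33 ± 0.077 (adjusted p = 0.00384), or by 0.291 without 1-day replicate 1 (adjusted p = 0.0529, in a range of 2.05e-05 to 0.0529).

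The 2 ETS factor genes moved in opposite directions at 4 days. Etv4 fell from 153.9, 161.7 and 160.1 CPM to 99.89, 100.5 and 109.2 CPM (log2 fold change -0.62 ± 0.073, edgeR adjusted p = 4.11e-06), while Etv5 rose from 122.0, 121.8 and 127.7 CPM to 184.2, 189.9 and 191.8 CPM (0.61 ± 0.069, adjusted p = 2.8e-06). In neither gene did the serum and serum-free libraries overlap. At 1 day in WT cells Etv4 overlapped between groups, at 138.8 and 149.6 CPM against 144.5 and 147.7 CPM (0.018 ± 0.074, adjusted p = 0.87). In DKO-labelled cells it fell from 148.9 and 132.8 CPM to 115.8 and 113.1 CPM (-0.30 ± 0.074, adjusted p = 0.00496), or -0.261 without 1-day replicate 2 (adjusted p = 0.0725, in a range of 0.000169 to 0.0725). Etv5 in WT cells rose from 157.4 and 160.9 CPM to 189.2 and 193.4 CPM at 1 day (0.27 ± 0.075, adjusted p = 0.0114). That call was lost without any of the libraries, at 0.243 and 0.27 without WT serum replicates 1 and 2 and 0.266 and 0.252 without 1-day replicates 1 and 2 (adjusted p 0.000805 to 0.0909 over settings). Over the same 4 days the proliferation markers fell together, 4 of 4 called lower, while 4 of 4 tested fibroblast markers rose, from a sum of 1.08 to 1.87 CPM in serum to 9.5 to 14.5 CPM (with Lum and Pdgfra at 0 in serum), and none of 3 tested glial markers passed. A marker at 0 in serum, such as Pdgfra, passed the filter only through the 4-day libraries and could not be called lower. The part of these marker shifts in the members' changes was not tested.

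The comparison of DKO-labelled with WT cells asks how these genes differ between the lines. Spry4 was the member that differed most, at 40.47 and 32.4 CPM in DKO-labelled against 92.3 and 85.89 CPM in WT cells in serum, and at 52.45 and 50.02 against 150.0 and 145.9 CPM at 1 day. The groups did not overlap at either time, and DKO-labelled cells had 2.44-fold less in serum (log2 fold change -1.28 ± 0.097, edgeR adjusted p = 8.89e-08) and 2.89-fold less at 1 day (-1.53 ± 0.096, adjusted p = 9.93e-09). Dusp6 was higher in DKO-labelled cells at both times, by 0.53 ± 0.060 and 0.33 ± 0.059 (adjusted p = 6.08e-06 and 0.000389). Etv4 did not differ measurably in serum (-0.034 ± 0.074, adjusted p = 0.749) but was lower at 1 day (-0.35 ± 0.074, adjusted p = 0.00136). In all, 3 members were higher and 2 lower in serum, where 19.2% of genes were called higher, 21.5% lower and 40.7% in all. At 1 day 3 were higher and 2 lower, where 21.9% were called higher, 23% lower and 44.9% in all, so the share of members called is near the background. With the compared groups fitted alone, the 5 called in serum became 3 and the 5 at 1 day became 8. Calls over all genes moved likewise. They went from 5546 of 13630 to 4416 of 13053 in serum, and from 6123 of 13630 to 7311 of 13122 at 1 day. The catecholaminergic markers were lower in DKO-labelled cells in the same comparison, 10 of 12 tested in serum, and their part in the members' differences was not tested.

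Several calls of the line comparison changed with 1 library left out. Spry2 was higher in DKO-labelled cells in serum by 0.23 ± 0.070 (edgeR adjusted p = 0.0193), and by 0.247 and 0.206 without WT replicates 1 and 2 and 0.147 without DKO-labelled replicate 1, none past the test (adjusted p 0.00162 to 0.131 over settings). Dusp5 was lower in serum by -0.72 ± 0.24 (adjusted p = 0.0257), by -0.468 without WT replicate 2 and -0.439 without DKO-labelled replicate 2, both not past the test, and by -1.117 without DKO-labelled replicate 1 (adjusted p 0.000762 to 0.257). Spred1 was higher in serum by 0.59 ± 0.099 (adjusted p = 0.000266), or 0.37 and still called without DKO-labelled replicate 2, and higher at 1 day by 0.35 ± 0.099 (adjusted p = 0.01), or 0.355 without WT 1-day replicate 2 and 0.351 without DKO-labelled 1-day replicate 1, where the call was lost (adjusted p 1.45e-07 to 0.0538). Whether the response to withdrawal differed between the lines was tested as an interaction. None of the 10 members passed in edgeR, where 5.36% of genes had a higher and 4.37% a lower change, 9.72% in all. The DKO-labelled serum replicates lay furthest apart (Pearson r = 0.9826 over log2 CPM, against 0.9875 to 0.9891 in the other groups of this experiment). All groups share 1 estimate of the spread, so this result does not show that the lines respond alike. An unadjusted p below 0.05 in edgeR was reached by 3 of 10 members, but the share of all genes below it was not computed. DESeq2 called 1 member, Etv4 (-0.333, adjusted p = 0.0458), where it called 1503 of 13630 genes. The differences moved with the DKO-labelled serum library left out. Spred1 was at -0.434 without replicate 1 and 0.019 without replicate 2. Spry1 was at 0.553 without replicate 1, and Etv4 and Spry4 at -0.364 and -0.359 without replicate 2.

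In the third experiment pUC19 transfection was the control for the mimics, and it shifted some members by itself relative to cells with no named transfection. Of the 10, 2 were higher and 3 lower, where 10.7% of genes were called higher, 15.5% lower and 26.2% in all. These 5 became 3 without replicate 1 of the cells with no named transfection and 2 without pUC19 replicate 2. Dusp4 was at 508.4 and 539.0 CPM with pUC19 and 379.8 and 385.7 CPM without (log2 fold change 0.45 ± 0.053, edgeR adjusted p = 4.02e-06), and Dusp6 at 273.5 and 287.5 against 335.9 and 332.6 CPM (-0.25 ± 0.049, adjusted p = 0.000827). Spry1, at 13 and 11.47 against 16.29 and 16.69 CPM, was lower (-0.42 ± 0.099, adjusted p = 0.00409), or -0.343 without pUC19 replicate 2, where it was no longer called (adjusted p = 0.0575, in a range of 0.00239 to 0.0575). The higher Dusp5 (0.51 ± 0.16, adjusted p = 0.02) became 0.41 without replicate 1 of the cells with no named transfection, and 0.474 and 0.547 without pUC19 replicates 1 and 2 (adjusted p 0.015 to 0.163 over settings). The lower Spred1 (-0.25 ± 0.063, adjusted p = 0.00564) became -0.169 without replicate 1 of the cells with no named transfection and -0.199 without pUC19 replicate 2 (adjusted p 0.000374 to 0.126). Cells in this control group and in the group with no named transfection also differed in 3 of 4 proliferation markers, lower with pUC19, whose part was not tested. The control was plasmid DNA and not a small RNA, and no group with no named transfection was sampled at 2 days. In the comparisons at 2 days and the interactions, a shift by a mimic and a shift by pUC19 therefore cannot be told apart.

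With pUC19, withdrawal for 2 days raised Spry1, Dusp6 and Spry4 most among the members. Spry1 went from 13 and 11.47 CPM to 85.15 and 85.44 CPM, 6.92-fold (log2 fold change 2.79 ± 0.087, edgeR adjusted p = 2.19e-15). Dusp6 went from 273.5 and 287.5 CPM to 1074 and 1111 CPM, 3.9-fold (1.96 ± 0.050, adjusted p = 1.09e-16), and Spry4 from 31.79 and 36.91 CPM to 109.4 and 104.1 CPM, 3.13-fold (1.65 ± 0.078, adjusted p = 8.87e-13). Spry2, Spred1, Spred2, Dusp4, Dusp5 and Etv5 rose by 0.32 to 1.19 on the log2 scale, and Etv4 fell by 0.21 (adjusted p = 0.00253). In each of the 10 genes the serum and serum-free libraries were separate, a count whose share over all genes was not computed. Fibroblast markers rose too, 4 of 5 tested (summed level 7.07 to 7.48 CPM in serum and 26.2 to 28.2 CPM at 2 days), as did 2 of 3 tested glial markers (4.42 to 4.87 CPM and 9.8 to 10.7 CPM), with Thy1, Slc1a2, S100b and Mog at 0 at 2 days, and their part was not tested.

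**Figure D3:**
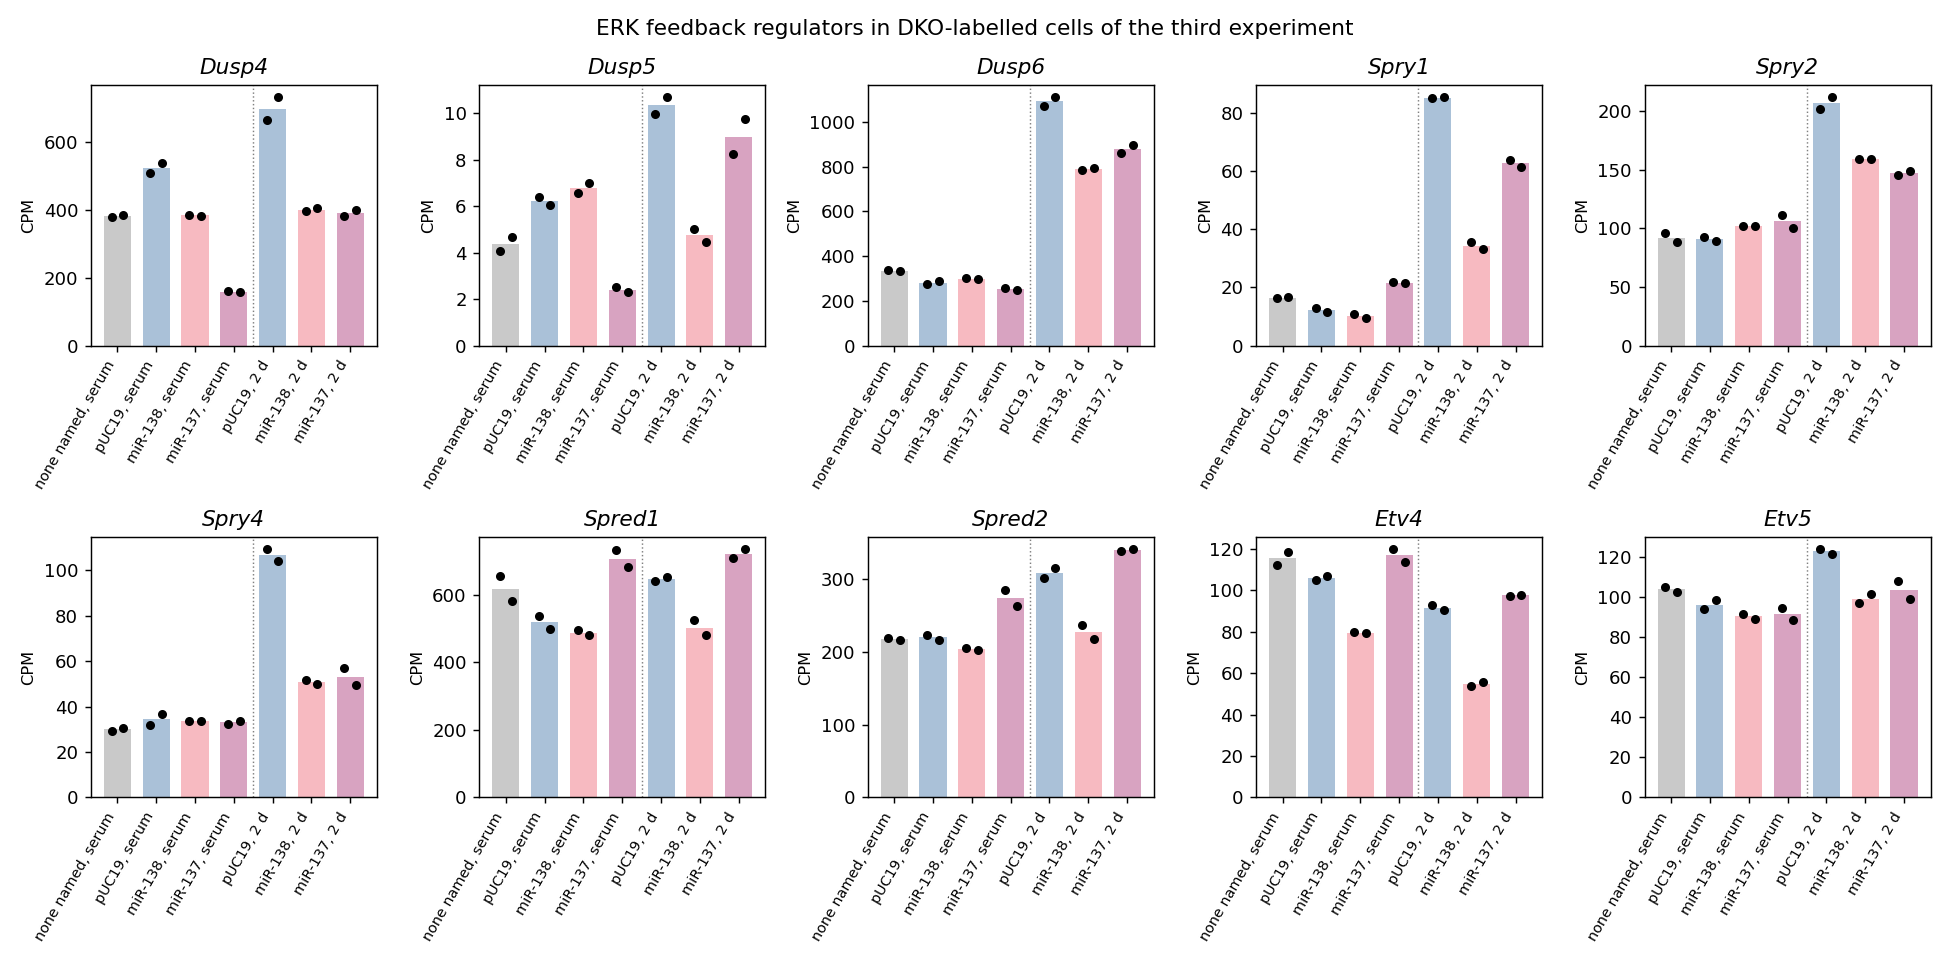
CPM (y axis) of the 10 genes in the third experiment, in serum (left of the dotted line) and 2 days without it (right), with points for libraries and bars for group means. Grey is cells with no named transfection, blue pUC19, red the miR-138 mimic and purple the miR-137 mimic; Dusp4 and Dusp5 are lowest in serum with the miR-137 mimic, and at 2 days all 10 genes are lower with the miR-138 mimic than with pUC19.

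The 2 mimics gave unlike differences from pUC19 in serum, and the largest were in the nuclear phosphatase genes with the miR-137 mimic. With the miR-137 mimic Dusp4 was at 159.9 and 158.4 CPM in serum against 508.4 and 539.0 CPM with pUC19, 3.29-fold lower (log2 fold change -1.72 ± 0.056, edgeR adjusted p = 7.13e-14). Dusp5 was at 2.527 and 2.285 against 6.391 and 6.048 CPM, 2.58-fold lower (-1.37 ± 0.18, adjusted p = 4.92e-06). In both genes every miR-137 library lay below every pUC19 library. In the opposite direction, Spry1 was higher with the miR-137 mimic, at 21.75 and 21.42 against 13 and 11.47 CPM (0.81 ± 0.099, adjusted p = 1.66e-06), as was Spred1 at 731.1 and 681.9 against 538.3 and 498.1 CPM (0.45 ± 0.063, adjusted p = 8.58e-06). Spred2 was also higher (0.31 ± 0.055, adjusted p = 9.77e-05). Cells with no named transfection had Dusp4 at 379.8 and 385.7 CPM and Dusp5 at 4.059 and 4.68 CPM in serum. They had Spry1 at 16.29 and 16.69 CPM and Spred1 at 654.1 and 581.1 CPM. In each of these genes their values lay between those with pUC19 and with the miR-137 mimic. The miR-137 cells were not tested against them. Against pUC19, 5 members were higher and 3 lower, where 23.1% of all genes were called higher, 22.5% lower and 45.6% in all.

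A further 3 calls with the miR-137 mimic in serum depended on single libraries. Among them Etv4 was at 120 and 114 CPM with the miR-137 mimic, which overlapped the 112.4 and 118.8 CPM of cells with no named transfection. Spry2 (0.22 ± 0.062, edgeR adjusted p = 0.00625) was at 0.138 without miR-137 replicate 1 (adjusted p = 0.153, in a range of 0.0025 to 0.153). Dusp6 (-0.15 ± 0.050, adjusted p = 0.0159) was at -0.13 without miR-137 replicate 2 and -0.113 without pUC19 replicate 2 (adjusted p 0.00803 to 0.151). Etv4 (0.14 ± 0.054, adjusted p = 0.038) was at 0.105 without miR-137 replicate 1 and at 0.125 and 0.16 without pUC19 replicates 1 and 2 (adjusted p 0.0293 to 0.254), and it also lost its call with DESeq2, without the filter, and when fitted on the compared groups alone.

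With the miR-138 mimic in serum 1 member was higher and 3 lower, where 28.7% of genes were called higher, 27.3% lower and 56% in all. Without miR-138 replicate 2 the calls numbered 2 instead of 4. All 4 proliferation markers were lower as well, summing to 1140 to 1170 CPM against 2190 to 2400 CPM with pUC19, and their part was not tested. Etv4 was at 79.74 and 79.31 CPM against 105.1 and 107.1 CPM with pUC19 (log2 fold change -0.42 ± 0.053, edgeR adjusted p = 1.91e-06), and Dusp4 at 384.3 and 382.9 against 508.4 and 539.0 CPM (-0.45 ± 0.053, adjusted p = 5.65e-07). The cells with no named transfection had Dusp4 at 379.8 and 385.7 CPM, a range that holds both miR-138 values. Spry1 was lower by -0.29 ± 0.10 (adjusted p = 0.0208), or -0.175 without miR-138 replicate 2 and -0.186 without pUC19 replicate 1 (adjusted p 0.0102 to 0.274). Spry2 was higher by 0.17 ± 0.060 (adjusted p = 0.0225), or 0.173 without either miR-138 replicate and 0.153 without pUC19 replicate 2 (adjusted p 0.0164 to 0.0985), where the call was lost. Against the miR-137 mimic in serum, the miR-138 mimic left 3 members higher and 4 lower (32.7% of genes called higher, 30.7% lower, 63.4% in all), with Dusp4 and Dusp5 higher by 1.27 ± 0.055 and 1.49 ± 0.17 and Spry1 lower by -1.10 ± 0.095 (adjusted p = 2.1e-13, 2.49e-07 and 4.25e-09).

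At 2 days without serum all 10 members were lower with the miR-138 mimic than with pUC19, where 31.1% of genes were called lower, 30.9% higher and 62% in all. Their median log2 fold change was -0.60, against 0.002 over all genes. The largest gap was in Spry1, at 35.8 and 33.06 CPM against 85.15 and 85.44 CPM (-1.31 ± 0.076, edgeR adjusted p = 2.65e-11). Dusp5 followed at 5.026 and 4.465 against 9.979 and 10.68 CPM (-1.11 ± 0.15, adjusted p = 2.17e-06), then Spry4 at 51.8 and 49.91 against 109.4 and 104.1 CPM (-1.07 ± 0.075, adjusted p = 3.35e-10). Dusp4, Etv4, Dusp6, Spred2, Spry2, Spred1 and Etv5 differed by -0.80 to -0.31 on the log2 scale. In all 10 genes the libraries of the 2 groups were separate. With 2 libraries per group this is easily reached, and its share over all genes was not computed. All 10 calls held under every alternative and with any library left out. The proliferation markers were lower with the miR-138 mimic too, 4 of 4, summing to 989 to 1170 against 1550 to 1990 CPM, and their part was not tested.

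At 2 days fewer members were lower with the miR-137 mimic. Against pUC19, 6 were lower and 2 higher, where 22.2% of genes were called lower, 20.5% higher and 42.7% in all. Without miR-137 replicate 2 the calls numbered 5 instead of 8. Spry4 was at 56.98 and 49.41 against 109.4 and 104.1 CPM (log2 fold change -1.01 ± 0.075, edgeR adjusted p = 2.8e-09), and Dusp4 at 381.7 and 399.1 against 666.0 and 731.9 CPM (-0.84 ± 0.053, adjusted p = 2.41e-10). Spry2, Spry1 and Dusp6 were lower by -0.49 to -0.31. Etv5 was lower by -0.25 ± 0.058 (adjusted p = 0.00187), or -0.185 without miR-137 replicate 2 (adjusted p = 0.0583, in a range of 0.000827 to 0.0583). The higher Spred1 (0.16 ± 0.062, adjusted p = 0.0469) lost its call without any of the 4 libraries, at 0.185 and 0.133 without miR-137 replicates 1 and 2 and 0.143 and 0.174 without pUC19 replicates 1 and 2 (adjusted p 0.0163 to 0.222). The higher Spred2 (0.14 ± 0.054, adjusted p = 0.0411) lost it at 0.146 and 0.137 without miR-137 replicates 1 and 2 and 0.109 without pUC19 replicate 1 (adjusted p 0.0241 to 0.204). Set directly against miR-137 at 2 days, the miR-138 mimic gave 6 members lower and none higher (30.8% of genes called lower, 30.8% higher, 61.6% in all). Dusp5 (-0.92 ± 0.16, adjusted p = 3.76e-05), Spry1 (-0.86 ± 0.078, adjusted p = 1.18e-08) and Etv4, at 53.88 and 55.74 against 97.5 and 97.66 CPM (-0.83 ± 0.058, adjusted p = 2.23e-10), were lower, while Spry4 (-0.063 ± 0.079, adjusted p = 0.512) and Dusp4 (0.038 ± 0.053, adjusted p = 0.553) were not separated by the test. Dusp6 (-0.15 ± 0.048, adjusted p = 0.00876) was at -0.131 without miR-137 replicate 2 (adjusted p = 0.0828, in a range of 0.00134 to 0.0828).

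**Figure D4:**
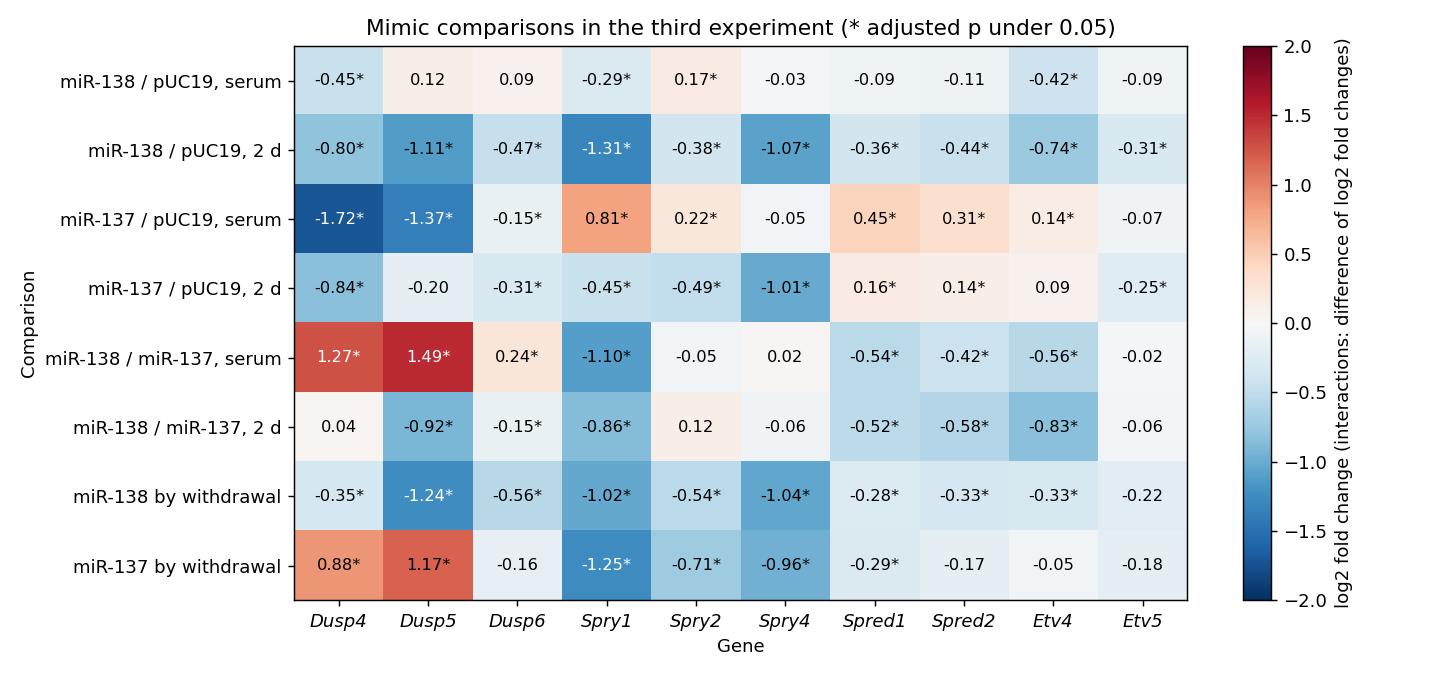
Log2 fold changes (colour and number) of the 10 genes (x axis) in 6 comparisons between transfected groups and in the 2 interactions with withdrawal (y axis), with a star for an adjusted p under 0.05. The row of miR-138 over pUC19 at 2 days is negative and starred for all 10 genes, and the miR-137 rows show Dusp4 and Dusp5 as the strongest negative values in serum.

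Withdrawal itself was then compared between mimic and pUC19 cells as an interaction, that is, the change with the mimic minus the change with pUC19. The mimic comparisons share the pUC19 libraries and are not independent. With the miR-138 mimic the change was smaller or more negative in 9 of 10 members, where 27.8% of genes differed, 13.3% upward and 14.5% downward. Dusp5 stood out in direction: it fell from 6.576 and 7.004 CPM to 5.026 and 4.465 CPM with the miR-138 mimic (log2 fold change -0.51 ± 0.15, edgeR adjusted p = 0.00524; -0.426 without 2-day replicate 2, adjusted p = 0.0558, in a range of 0.00346 to 0.0558) and rose with pUC19 (0.73 ± 0.14, adjusted p = 0.000192). The difference of these changes was -1.24 ± 0.21 (adjusted p = 0.000165). Spry4 rose from 33.59 and 33.43 CPM to 51.8 and 49.91 CPM, 1.52-fold instead of 3.13-fold, a difference of -1.04 ± 0.11 (adjusted p = 1.02e-06). Spry1 rose 3.42-fold instead of 6.92-fold (difference -1.02 ± 0.13, adjusted p = 8.16e-06) and Dusp6 2.65-fold instead of 3.9-fold (difference -0.56 ± 0.068, adjusted p = 6.32e-06). Etv5 did not pass in the main fit. It passed in edgeR without the filter (-0.26, adjusted p = 0.038) and with replicate number as a block (-0.22, adjusted p = 0.0374). Its difference was -0.271 without pUC19 serum replicate 2 and -0.266 without miR-138 2-day replicate 2. The weakest call, Spred1 (-0.28 ± 0.088, adjusted p = 0.0249), was lost at -0.267 without miR-138 serum replicate 1, -0.238 without pUC19 serum replicate 2 and -0.224 without miR-138 2-day replicate 2 (adjusted p 0.000577 to 0.092). Within the miR-138 cells, the rises of Spred2 (0.15 ± 0.054, adjusted p = 0.019) and Etv5 (0.13 ± 0.058, adjusted p = 0.0489) were small. Spred2 was at 0.15 without miR-138 serum replicate 2 and 0.097 without 2-day replicate 1 (adjusted p 0.00518 to 0.197), and Etv5 at 0.164 and 0.118 without serum replicates 1 and 2 and 0.108 without 2-day replicate 2 (adjusted p 0.0201 to 0.206), with neither then called.

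With the miR-137 mimic the interaction split the members, 2 higher and 4 lower, where 23.3% of genes differed, 11.9% upward and 11.4% downward. Dusp4 climbed from 159.9 and 158.4 CPM to 381.7 and 399.1 CPM, 2.45-fold against 1.33-fold with pUC19 (difference 0.88 ± 0.076, edgeR adjusted p = 1.09e-07). Dusp5 climbed from 2.527 and 2.285 CPM to 8.228 and 9.737 CPM, 3.73-fold against 1.65-fold (difference 1.17 ± 0.23, adjusted p = 0.00109). At 2 days Dusp5 with miR-137 was no longer separated by the test from pUC19 (-0.20 ± 0.14, adjusted p = 0.26), while Dusp4 remained lower. Spry1, Spry4 and Spry2 rose less than with pUC19, by differences of -1.25 ± 0.12, -0.96 ± 0.12 and -0.71 ± 0.085 (adjusted p = 5.88e-07, 6.88e-06 and 6.1e-06). Spred1 (-0.29 ± 0.088, adjusted p = 0.0231) lost its call at -0.237 without miR-137 serum replicate 1, -0.223 without pUC19 serum replicate 2 and -0.263 without miR-137 2-day replicate 1 (adjusted p 0.00187 to 0.124). Dusp6 rose 3.49-fold with the miR-137 mimic, and its difference from pUC19 did not pass (-0.16 ± 0.069, adjusted p = 0.103). Etv5 within the miR-137 cells (0.18 ± 0.060, adjusted p = 0.0148) was at 0.127 without serum replicate 2 and 0.109 without 2-day replicate 1 (adjusted p 0.00473 to 0.212).

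Other genes of the pathway gave a mixed picture, and their counts at 4 days stand against 36.2% of all genes called higher and 34.7% lower. Of 20 receptor tyrosine kinase genes, 12 were tested at 4 days in WT cells and all 12 rose (median log2 fold change 1.79), among them Alk (3.10), Ret (1.71), Insr (2.22) and Erbb3 (2.78), which encode receptors for ALKAL, GDNF-family, insulin and neuregulin ligands. Of the 12, Pdgfra was at 0 CPM in serum and 0.472 to 1.63 CPM at 4 days. It passed the filter only through the 4-day libraries, so it could not be called lower. Pdgfrb, at 0.129 to 0.894 CPM in serum, was also near the floor. With pUC19 at 2 days (28.4% of genes called higher and 31.3% lower) 7 of 12 rose and 1 fell, including Ret (1.21), Igf1r (1.11), Insr (1.06) and Alk (1.55). Among 23 genes of the RAS-RAF-MEK-ERK core, 8 rose and 8 fell at 4 days, with a median of 0.007, and the share called is near the background; Mapk3, which encodes ERK1, rose by 1.73 and Hras fell by 1.49. Of 8 tested relatives of the members, 5 rose and 1 fell at 4 days, with Dusp8 (4.00), Dusp16 (1.64) and Dusp1 (1.76) higher and Dusp2 lower (-3.26). Of 10 growth factor ligand genes tested, 5 rose at 4 days and none fell, among them Vegfa (2.65), Fgf1 (2.09) and Bdnf (1.79). Of the 10, Igf2 was at 0 CPM in serum and 0.642 to 0.977 CPM at 4 days. It passed the filter only through the 4-day libraries, so it could not be called lower. Of 15 other ERK output genes tested, 4 rose and 7 fell at 4 days, with Ier3 (2.73) and Fosl2 (1.33) higher and Ccnd1 (-2.08), the cyclin D1 gene, and Phlda1 (-1.43) lower.

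With the miR-138 mimic at 2 days 11 of 15 other ERK output genes were lower than with pUC19 and 1 was higher (median -0.93), where 62% of all genes were called, led by Emp1 (-1.83), Ccnd1 (-1.81), Myc (-1.44) and Ier3 (-2.03), and in serum 11 were lower and 1, Epha4 (1.89), was higher, where 56% were called and 3 of the 10 members were lower. The core moved less, 5 higher and 9 lower of 23 at 2 days (median -0.10), with Rps6ka1 (-1.06), which encodes the ERK-activated kinase RSK1, and Rps6ka3 (-0.43) lower and Mapk3 (0.62) higher. Receptor genes Fgfr1 (-0.85), Igf1r (-0.78), Ret (-0.49) and Alk (-0.58) were lower, in a list with 5 lower and 2 higher of 12. Of 8 ligand genes, 4 were higher and 3 lower, among them Bdnf (2.04) and Vegfa (-0.96). Of 8 relatives of the members, 4 were lower and none higher, led by Dusp1 (-0.75). In the core, the receptor genes and the relatives, the share called in either direction was not above the 62% over all genes. With the miR-137 mimic in serum, where 45.6% of genes were called, the core had 13 higher and 4 lower (median 0.30), among them Map2k1 (0.56), which encodes MEK1, Sos2 (0.57) and Nras (0.46). The other outputs had 3 higher and 4 lower of 15, a share near that over all genes, with Myc (-0.93) and Fos (-1.07) lower.

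The small RNA libraries hold the miRNAs printed above in WT cells. The miR-181a-5p level was 3345, 3501 and 3424 CPM in serum and 6666, 6884 and 7010 CPM at 4 days, with no overlap (log2 fold change 1.00 ± 0.076, edgeR adjusted p = 0.000231), at a time when its reported target Dusp6 was higher and no change of Dusp5 passed the test. Of 715 miRNAs tested, 19.6% were called higher, 16.2% lower and 35.8% in all. The miR-138-5p level was 7921, 4938 and 7411 CPM in serum and 11380, 11230 and 10780 CPM at 4 days (0.72 ± 0.18, adjusted p = 0.0206), and was called no longer at 0.694, 0.739 and 0.797 without 4-day replicates 1, 2 and 3 (adjusted p = 0.0825, 0.0808 and 0.0533). The miR-137-3p level rose from 5371, 4143 and 5785 CPM to 8902, 8332 and 8490 CPM (0.75 ± 0.13, adjusted p = 0.0056). The others, miR-21a-5p (-0.062 ± 0.089), miR-27a-3p (-0.43 ± 0.30) and miR-27b-3p (0.085 ± 0.18), did not pass (adjusted p = 0.594, 0.292 and 0.718), although miR-27a-3p was at -0.742 and called lower without serum replicate 2, where its level of 1804 CPM lay below the 4311 and 3471 CPM of the other serum libraries.

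Across the 13 RNA-seq group means, centred within each experiment, Dusp6 ran most closely with Spry2 (Pearson r = 0.933) and Spry1 (0.879) among the members, Spry1 with Spry2 (0.893) and Dusp4 with Dusp5 (0.793), while Dusp6 and Etv4 ran apart (-0.572). Among 9324 genes with a mean of at least 5 CPM in every experiment, those most like Dusp6 were St6galnac5 (0.983), Bnc2 (0.971), Dtx3l (0.967), Frmpd1 (0.967) and Iqsec1 (0.966). Those most like Spry4 were Dgat1 (0.93), Kdm3b (0.899), Tet1 (0.894), Onecut2 (0.892) and Plcxd3 (0.892), and those most like Etv4 were Fscn1 (0.969), Rnf219 (0.966), Camkv (0.964), Dlx1 (0.962) and Crip2 (0.953). The 13 points share control groups, libraries and the serum contrast, so these values describe the pattern only.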

How the data were processed

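RNA-seq covered 28 libraries of CAD cells in 13 groups and small RNA-seq 6 libraries in 2. The deposited gene files are unnormalized read counts; the submitters' processing notes name STAR and mm9, and also cutadapt and BWA. Tool versions and annotation: not given in the sources used here. Strand column 4 was taken, since column 3 held 3.18 to 3.81% of assigned reads. Reads that mapped to several places, to no feature or to more than 1 gene stayed out of library totals. Of 37310 identifiers, 32620 (87.4%) matched a symbol.

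Each experiment was fitted by itself with edgeR 4.0.16 (R 4.3.3, limma 3.58.1, data.table, version 1.17.8): filterByExpr (minimum count 10, minimum total 15), TMM scaling and two-sided quasi-likelihood tests, adjusted by Benjamini-Hochberg over all genes, at 0.05, in 18 comparisons, 3 of them interactions. The fits kept 13630, 13283 and 12655 genes. Small RNA counts, deposited by the authors per mature miRNA, were fitted likewise. The tests were also run on simulated counts. Far fewer genes changed there than were called here, so that run does not check them at this share of changes. The members and lists were chosen with earlier results of these data known. The text names all members; up to 4 genes of each pathway list per comparison, lowest adjusted p first, among those past the threshold; and the 5 genes most like Dusp6, Spry4 and Etv4. Genes whose fit rests on groups at 0 counts are left out of the names and are mentioned only for that limit. A gene that this rule would name is not reported here. The results were recomputed with DESeq2 1.42.0, with RLE scaling, without the filter, with a block for replicate number, on unstranded counts, on the compared groups alone, and without each library. A group left with 1 library is then assumed to vary like the others. Figures used matplotlib 3.10.9 and pandas 2.3.3 in Python 3.11.15. The seeds of the mimics were not searched for in 3' UTRs, since no genome sequence was at hand.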

Additional observations from a re-analysis of the deposited data

Results flagged for a closer look

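The change on serum withdrawal differed between mimic and pUC19 cells by the interaction test in 15 cases (edgeR, adjusted over all genes). With the miR-138 mimic the difference of log2 fold changes was -0.35 for Dusp4, -1.24 for Dusp5, -0.56 for Dusp6, -1.02 for Spry1, -0.54 for Spry2, -1.04 for Spry4, -0.28 for Spred1, -0.33 for Spred2 and -0.33 for Etv4, so all 9 were in the same direction. With the miR-137 mimic it was 0.88 for Dusp4 and 1.17 for Dusp5, but -1.25 for Spry1, -0.71 for Spry2, -0.96 for Spry4 and -0.29 for Spred1. Over all genes 27.8% differed with miR-138 (13.3% upward, 14.5% downward) and 23.3% with miR-137 (11.9% upward, 11.4% downward). Both sets of differences use the same pUC19 libraries, and a shift by pUC19 cannot be told apart from one by a mimic. Both Spred1 calls depended on single libraries, as given above.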

How the results depend on the processing

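Of 180 values (10 genes in 18 comparisons) 123 were called; 97 of these held under all alternatives and left-out libraries, 26 lost their call in at least 1 of them, and 0 changed sign. Of the 57 not called, 14 passed in some setting and 19 changed sign in some. The replicate numbers did not pair the libraries: correlations of deviations between same-numbered libraries were 0.01 to 0.046, -0.026 to 0.025 and -0.187 to 0.096 in the 3 experiments. With the replicate number as a block, 1 member passed the genotype-by-withdrawal interaction instead of 0. DESeq2 and the fit with no low-count filter also gave 1. Over all genes 1751, 1503 and 1780 passed in these settings, in that order, instead of 1325. No other count of members moved by over 1.5 times under the block, where 5 uncalled values passed: Spred1 in DKO-labelled cells at 1 day (0.235), Spry1 (0.309) and Dusp5 (-0.593) between the lines at 1 day, Etv4 in the interaction of the lines (-0.318) and Etv5 in that of miR-138 (-0.22), with adjusted p of 0.0273 to 0.0474.

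With the compared groups alone, 3 members instead of 5 differed between DKO-labelled and WT cells in serum, and 8 instead of 5 at 1 day. Calls over all genes moved likewise, to 4416 instead of 5546 in serum and 7311 instead of 6123 at 1 day. With a library left out, the members called numbered 5 to 6 instead of 8 in WT at 1 day, 3 to 5 instead of 5 between the lines in serum, 2 to 5 instead of 5 for pUC19 against no named transfection, 2 to 3 instead of 4 for miR-138 against pUC19 in serum, and 5 to 7 instead of 8 for miR-137 against pUC19 at 2 days. Over all genes, the interaction of the first experiment gave 615 to 2602 calls instead of 1325, and pUC19 against no named transfection gave 1730 without its replicate 1 and 1750 without pUC19 serum replicate 2 instead of 3321. Uncalled values that changed sign were Etv5 between the lines in serum (0.004 with RLE and DESeq2, 0 unstranded), Spred2 in the interaction of the lines (0.003 unfiltered, 0.002 unstranded) and Spry2 for pUC19 (0.003 unfiltered, 0.021 with compared groups alone). With a library left out, uncalled values spanned 0 in the following cases, from the lowest to the highest: WT at 1 day, Etv4 -0.041 to 0.062; the lines in serum, Etv4 -0.133 to 0.052 and Etv5 -0.092 to 0.067; the lines at 1 day, Dusp4 -0.028 to 0.208 and Etv5 -0.218 to 0.011; the interaction of the lines, Spred1 -0.434 to 0.019, Spred2 -0.091 to 0.087, Etv5 -0.204 to 0.013 and Dusp5 -0.123 to 0.525; pUC19 against no named transfection, Spry2 -0.081 to 0.041. For miR-138 against pUC19 in serum Spry4 was -0.138 to 0.085, and for miR-137 -0.165 to 0.057. For miR-138 against miR-137 the values were -0.131 to 0.031 (Spry2), -0.064 to 0.027 (Etv5) and -0.014 to 0.06 (Spry4) in serum, and -0.001 to 0.067 (Dusp4) and -0.167 to 0.039 (Spry4) at 2 days. Spred1 on withdrawal was -0.016 to 0.114 with miR-138 and -0.023 to 0.079 with miR-137. The cause of these shifts was not tested. Depth limits Dusp5 most, with 32 to 459 counts per library.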
